A study of Mus musculus with 4 samples.

Results

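The 34 genes described here encode tumour necrosis factor (Tnf), its receptors, and the adaptors, kinases, NF-kB subunits and inhibitors that carry and end the signal. They were chosen by gene symbol, and all 34 were found among the 32285 genes of the feature table. Their UMI counts (unique molecular identifiers, 1 per captured transcript) were followed through 4 single-cell RNA-seq libraries of leukocytes from transplanted mouse lungs. Left lungs of B6 mice were kept for 60 min at 4 °C and 45 min at 28 °C, then transplanted into syngeneic recipients and collected 2 h after reperfusion. Recipients had received an intravenous dose of 200 ng resolvin D1 (RvD1) in 200 µL of 1% ethanol, or vehicle, immediately before the operation. RvD1 is a lipid mediator made from docosahexaenoic acid and is known for limiting inflammation.

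The 4 groups were CD45+ donor leukocytes of vehicle grafts, CD45+ donor leukocytes of RvD1 grafts, and CD45+ recipient leukocytes of vehicle and of RvD1 grafts. All 4 groups were of B6 origin, all grafts had undergone the same cold and warm storage, and no untransplanted lung was analysed here. The sources used here give neither age nor sex, nor the means by which donor cells were told from recipient cells. Each group was 1 library made from 2 pooled lungs, so no difference below has a replicate check, no p-value is given, and every interval covers counting error only. The 4 libraries held 5195 to 7836 cell barcodes and 42199775 to 61294707 UMIs, and 5024 to 7345 cells passed the filters, with a median of 5386 to 7905 UMIs per cell. Any pair of libraries shared 4 to 13 barcodes.

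TNF binds TNFR1 or TNFR2 and assembles a complex of TRAF, cIAP and RIPK1 proteins, from which the IKK kinases are switched on. IKK marks the IkB inhibitors for destruction, and the freed subunits, dimers of RelA, RelB, c-Rel, p50 and p52, enter the nucleus. Among the genes they switch on are those of their own inhibitors, such as IkBα (Nfkbia) and A20 (Tnfaip3), so that transcripts of the pathway mark its recent activity as well as its parts. In reperfused lungs, neutrophils and macrophages are known sources of TNF.

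The DNA before the members' start sites was searched for letters that NF-kB is known to bind. The search used a loose 10-base form of the kB consensus, GGGRNNYYCC, where R is A or G, Y is C or T and N is any base. It covered both strands of the 250 bases before each annotated start in the RefSeq promoters (GRCm38.p6). Of the 26 members searched, 10 held a match, or 38.5%. Across all 27018 genes with an entry the share was 8.24%. The 10 were Nfkb2, Nfkbia, Nfkbid, Nfkbie, Rel, Tank, Tnfaip2, Tnfaip3, Tnip1 and Tnip3. Nfkbiz, Nfkb1, Relb, Ripk2, Cd40 and Ikbkb have no entry there. Tnfaip8 and Map3k8 were left out of the search, and whether they have an entry was not checked. The share over all genes was not limited in that way, so it is only a rough background for the members. A match is a description of the letters and not evidence of binding. Shown 5′ to 3′ on the gene's strand, with the match in capitals, are the windows of 3 inhibitors of the pathway whose levels are described below, and that of the ligand, which held no match. They are Nfkbia at chr12:55492648-55492897 (minus strand), Nfkbie at chr17:45555450-45555699 (plus strand), Tnip3 at chr6:65590148-65590397 (plus strand) and Tnf at chr17:35202008-35202257 (minus strand).
Nfkbia: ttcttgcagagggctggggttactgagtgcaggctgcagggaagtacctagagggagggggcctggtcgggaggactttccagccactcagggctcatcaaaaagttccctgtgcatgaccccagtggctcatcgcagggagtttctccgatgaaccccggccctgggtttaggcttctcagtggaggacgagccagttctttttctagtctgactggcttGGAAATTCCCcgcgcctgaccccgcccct
Nfkbie: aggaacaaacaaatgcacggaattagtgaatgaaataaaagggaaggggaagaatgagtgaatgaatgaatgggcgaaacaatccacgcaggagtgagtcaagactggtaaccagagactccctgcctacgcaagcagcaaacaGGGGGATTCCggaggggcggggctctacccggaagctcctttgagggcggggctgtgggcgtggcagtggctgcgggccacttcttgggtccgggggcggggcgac
Tnip3: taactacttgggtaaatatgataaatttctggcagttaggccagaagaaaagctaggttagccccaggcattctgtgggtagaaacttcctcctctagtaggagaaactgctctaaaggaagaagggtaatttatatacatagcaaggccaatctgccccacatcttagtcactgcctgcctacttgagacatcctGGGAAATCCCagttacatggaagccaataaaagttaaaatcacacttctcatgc
Tnf: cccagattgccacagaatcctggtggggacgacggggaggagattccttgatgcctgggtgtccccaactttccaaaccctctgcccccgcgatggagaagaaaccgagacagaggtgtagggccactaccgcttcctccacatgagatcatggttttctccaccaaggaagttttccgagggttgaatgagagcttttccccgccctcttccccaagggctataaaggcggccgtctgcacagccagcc
The match begins 29 bases before the start in Nfkbia, 106 bases before it in Nfkbie and 54 bases before it in Tnip3. Tnfaip3 held 2 matches, GGGACACCCC from 125 and GGAAATCCCC from 12 bases before its start.

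Cells were clustered without the 34 members and named from marker genes. Of the 27 clusters, 6 leukocyte classes had at least 100 cells in all 4 libraries and are compared below: neutrophils (1413 and 1899 cells in the donor libraries of vehicle and RvD1 grafts, then 3339 and 3038 in the recipient libraries of vehicle and RvD1 grafts), classical monocytes (511, 727, 162 and 234), nonclassical monocytes (366, 224, 103 and 326), T cells (976, 835, 788 and 1807), B cells (448, 262, 866 and 925) and NK cells (790, 423, 357 and 616). Values in 4 libraries are given in this order throughout. Cluster 14, with 226, 73, 96 and 51 cells, carried nonclassical monocyte markers together with neutrophil genes and stayed unnamed, as did cluster 16, led by epithelial and endothelial genes. Levels are in CPM, the UMIs of a gene scaled to a fixed total for the class, with exact Poisson intervals at 95%. They are not scaled to transcript length, so each gene is compared only with itself, and a class sum cannot tell fewer expressing cells from less RNA per cell.

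Most members had their highest mean level in a myeloid class. Averaged over the 4 libraries, neutrophils had the highest level of the 6 classes for 18 of the 34 members, and for 12 of them every neutrophil library lay above every library of the next class. Nonclassical monocytes led for 10 members, 5 of them without overlap, and B cells for 3, none without overlap. Classical monocytes led for Nfkbib, NK cells for Tnfaip3 and T cells for Tnfaip8. Neutrophils led for the ligand Tnf and the inhibitors Nfkbia, Nfkbid, Nfkbie and Nfkbiz, and nonclassical monocytes for the kinases Ikbkb, Chuk and Map3k8, as the map of levels by class shows. The same counts over all genes were not computed. Ribosomal protein genes made up 2.19% to 2.42% of UMIs in neutrophils. In nonclassical monocytes they made up 11.95% to 16.1%, in B cells 20.1% to 26.6% and in T cells 22.7% to 35.9%. Their part in the order of the classes was not tested.

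**Figure D1:**
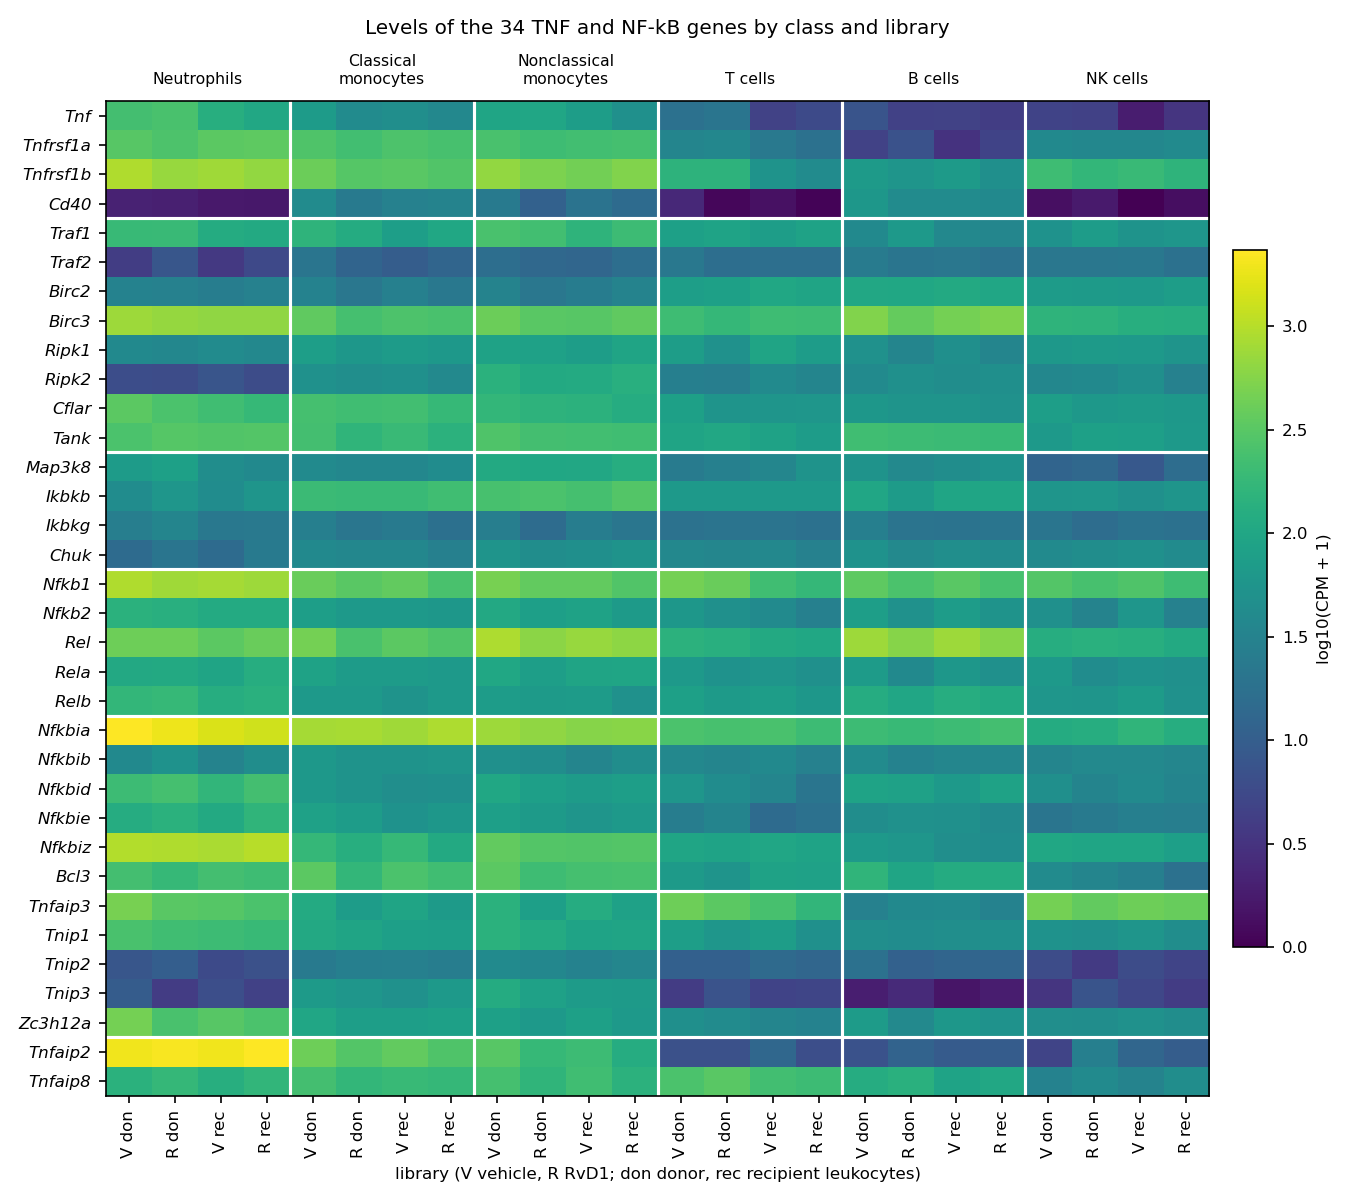
Levels of the 34 members, as log10(CPM + 1), in 6 leukocyte classes; each class has 4 columns, 1 per library, and members are grouped by role. Neutrophils have the highest mean level for 18 members, among them Tnf, Nfkbia and Tnfaip2, and lie below the other classes for Ripk2 and Traf2.

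Tnf transcripts were highest in neutrophils among the 6 classes, at 228, 252, 129.9 and 105 CPM. The 2 donor libraries lay above the 2 recipient libraries. Nonclassical monocytes followed with 95.2, 98.3, 73.0 and 48.2 CPM, all below the lowest neutrophil library, and overlapped classical monocytes, at 70.2, 41.4, 45.0 and 35.9 CPM. T cells had 17.3, 19.4, 3.56 and 4.79 CPM, B cells 3.07 to 6.42 CPM and NK cells 0.842 to 3.73 CPM. RNA shed by neutrophils was estimated by taking all S100a8 and S100a9 counts in a class as shed, at the average make-up of that library's neutrophils. Neutrophils with more Tnf per S100a8 count could supply more than this estimate. By it, shed RNA could supply up to 4.21% of the Tnf level in either monocyte class. In T cells it could supply up to 27.4% in the vehicle recipient library, and in B and NK cells it could supply the whole level in the RvD1 donor library (129.8% and 100.04%), and in NK cells also in the vehicle recipient library (147.5%). Alveolar macrophages, which came almost wholly from the donor, had 512 CPM in the vehicle donor library (222 cells) and 691 CPM in the RvD1 donor library (41 cells). In that second library 1 cell held 37.45% of the Tnf UMIs. Its alveolar macrophages were also shallower, with a median of 3159 UMIs against 28779.5 in the vehicle donor library. They carried more S100a8, at 773 against 116 CPM.

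The share of neutrophils with a Tnf UMI was higher in both donor libraries than in both recipient libraries, while the level was highest in the RvD1 donor library and the share in the vehicle donor library. With each cell thinned to 1000 UMIs, Tnf was seen in 17.5% (exact binomial 95% interval 15.6 to 19.6), 16.2% (14.5 to 17.9), 10.2% (9.16 to 11.2) and 8.20% (7.24 to 9.24) of neutrophils, after leaving out 10, 21, 4 and 25 shallower cells. Without thinning the shares were 42.3%, 38.3%, 31.1% and 23.9%, at median depths of 4874.5 to 5344 UMIs. In NK cells thinned to the same depth Tnf was seen in 0.508%, 0.236%, 0% (0 of 357 cells, where 3 counts would give 0.84% of cells with a UMI at this depth) and 0.327%. The neutrophil shares lay far above those of NK cells in every library.

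Both TNF receptors were strongest in myeloid cells. Tnfrsf1a, which encodes TNFR1, the receptor with a death domain, had 314, 269, 334 and 336 CPM in neutrophils, and its range overlapped that of classical monocytes (219 to 273). Tnfrsf1b encodes TNFR2, a receptor found mainly on leukocytes, and had 939, 698, 767 and 661 CPM in neutrophils. Its lowest neutrophil library lay just under the highest nonclassical monocyte library, at 664 CPM. In T cells Tnfrsf1b had 152 and 152 CPM in the donor libraries but 52.0 and 41.0 CPM in the recipient libraries. Cd40, a receptor of the same family best known on antigen-presenting cells, had 39.0 to 59.6 CPM in B cells and at most 1.11 CPM in neutrophils. Dendritic cells, measured in 3 libraries with at least 20 cells, had 218, 139 and 139 CPM of Cd40.

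The receptor complex and kinase genes divided the myeloid classes. Ripk2, the kinase that serves the NOD receptors, had 139, 109, 115 and 131 CPM in nonclassical monocytes and 5.17, 5.12, 6.82 and 5.12 CPM in neutrophils. Ikbkb, the gene of IKKβ, had 243, 258, 238 and 293 CPM in nonclassical monocytes, 189 to 214 CPM in classical monocytes and 42.5 to 57.1 CPM in neutrophils. Chuk, the gene of IKKα, was likewise lowest in neutrophils, at 13.9 to 23.6 CPM, against 28.4 to 54.4 CPM in the other 5 classes. Birc3, which encodes cIAP2, went the other way, with 636 to 743 CPM in neutrophils and 376 to 536 CPM in B cells. Cflar, the gene of the caspase-8 inhibitor c-FLIP, had 333, 261, 218 and 178 CPM in neutrophils.

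**Figure D2:**
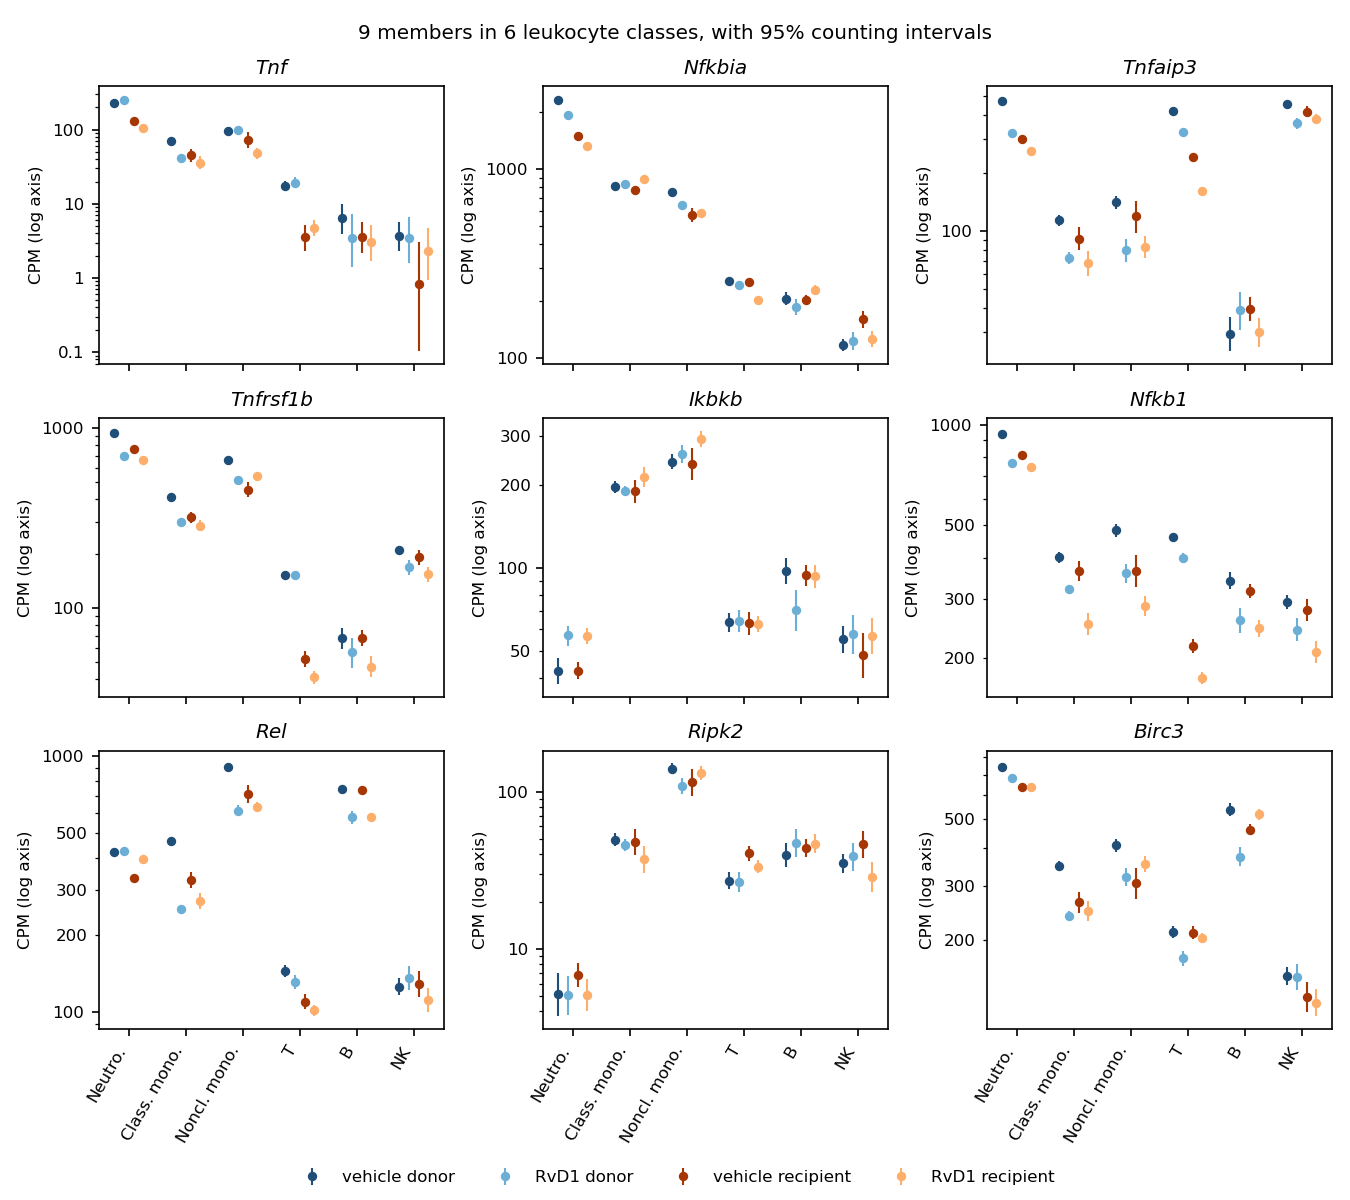
CPM (log axis) of 9 members in 6 classes, 1 point per library, with 95% counting intervals as bars. Tnf, Nfkbia, Nfkb1 and Birc3 are highest in neutrophils, Ikbkb and Ripk2 in nonclassical monocytes, and Tnf and Nfkb1 in T cells separate donor from recipient libraries.

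The subunits were spread over more classes. Nfkb1, the gene of p105 and p50, had 937, 768, 810.3 and 747 CPM in neutrophils, but the highest levels of all were in basophils and mast cells (5512, 2720.3 and 2368 CPM in 3 libraries) and in group 2 innate lymphoid cells (4668 and 3177 CPM in the donor libraries). Rel, the gene of c-Rel, which serves lymphocyte activation, had 909, 613, 713 and 634 CPM in nonclassical monocytes, overlapping B cells at 744, 577, 739 and 578 CPM. Rela, Relb and Nfkb2 stayed between 28.2 and 177 CPM in all 6 classes.

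Among the inhibitors, Nfkbia set neutrophils apart. Its level there was 2336, 1943, 1491 and 1329 CPM, against 778 to 886 CPM in classical monocytes and 116 to 159.6 CPM in NK cells. Nfkbiz, an atypical IkB protein that acts in the nucleus, had 872 to 1010.3 CPM in neutrophils and 282 to 357 CPM in nonclassical monocytes. Tnfaip3, the gene of A20, an enzyme that edits ubiquitin chains on the receptor complex, showed a different pattern. It was high in NK cells (363 to 456 CPM), neutrophils (259 to 471 CPM) and T cells (162 to 419.9 CPM), low in B cells (29.4 to 39.6 CPM), and highest in basophils and mast cells (1827, 1263 and 1581 CPM). Tnip3, whose product binds A20, was a dendritic cell transcript at 509.6, 561 and 785 CPM, with 68.0 to 116 CPM in nonclassical monocytes and at most 8.50 CPM in neutrophils. Tnfaip2, induced by TNF in many cells, had 1961 to 2303 CPM in neutrophils.

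The question of whether RvD1 altered the pathway was asked in donor and in recipient leukocytes, which share no library. A member is said to be described where the 2 libraries of each contrast held at least 100 UMIs, and to be lower or higher where both contrasts went the same way and each reached 1.5-fold. Very few members passed. In neutrophils none of the 30 described members was lower and none higher, while 9.39% of all 6505 described genes were lower and 4.81% higher. In classical monocytes none of 33 was lower or higher, against backgrounds of 2.73% and 0.985%. In nonclassical monocytes 1 of 31 was lower and none higher (backgrounds 1.39% and 0.927%), and in NK cells 1 of 27 was lower and none higher (1.27% and 0.944%). T cells had none of 30 (1.94% lower and 1.09% higher) and B cells none of 29 (1.22% and 0.685%). The vehicle libraries were made with Cell Ranger 6.1.1 and the RvD1 libraries with version 7.0.1, so the effects of treatment and of program version cannot be told apart. The sources used here do not say whether intronic reads entered the counts. Across genes, the ratio of RvD1 to vehicle moved with total intron length, with Spearman coefficients from -0.47 in donor B cells to -0.13 in donor neutrophils and recipient nonclassical monocytes.

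**Figure D3:**
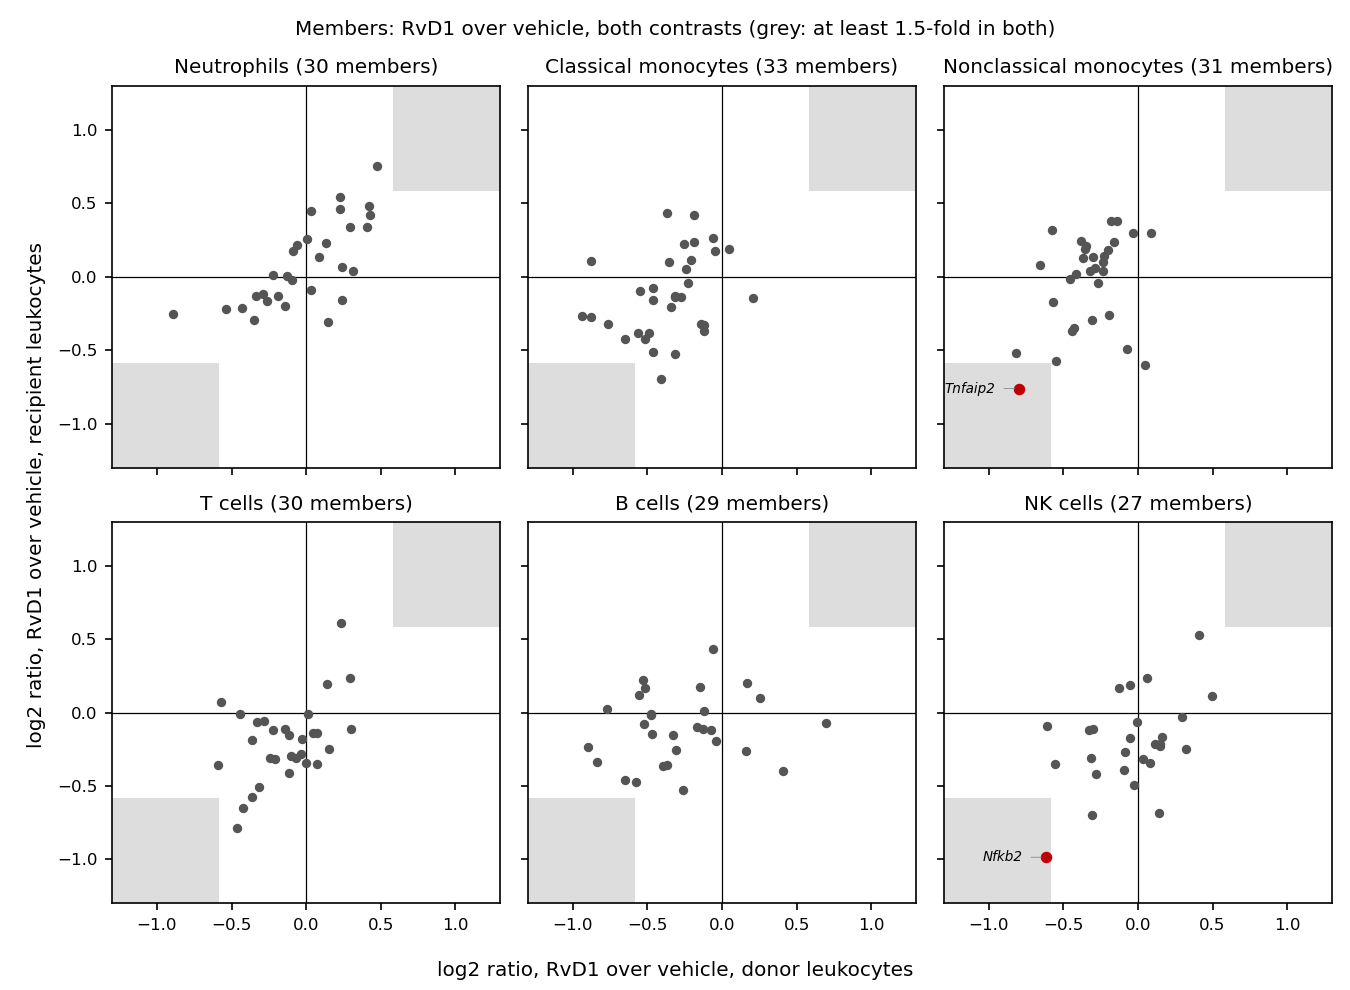
log2 ratio of RvD1 over vehicle for each described member, in donor leukocytes (horizontal) and recipient leukocytes (vertical), in 6 classes; grey corners mark at least 1.5-fold in both. Red points are Tnfaip2 in nonclassical monocytes and Nfkb2 in NK cells, and no other member lies in a grey corner.

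The member that was lower in nonclassical monocytes was Tnfaip2. Its levels were 311, 179, 204 and 120.3 CPM, so each RvD1 library lay below its vehicle partner. Donor cells gave a log2 ratio of -0.80 (95% counting interval -0.95 to -0.64) and recipient cells one of -0.76 (-1.02 to -0.50). By the estimate used for Tnf, neutrophil RNA could supply up to 8.45% of any of these levels. The result did depend on how the class was drawn: with each library clustered alone the donor ratio was 0.57 and the recipient ratio -1.19. Cluster 14, left out of the class, had 964, 1070.4, 1089 and 1216 CPM of Tnfaip2, and with it counted in the class the ratios were -0.49 and -1.31. Just outside the threshold in the same cells were Tnfaip3, at 141, 79.9, 119 and 83.0 CPM with log2 ratios of -0.82 and -0.52, and Tnfaip8, at -0.55 and -0.57. For Tnf itself the donor nonclassical monocytes gave 0.05 (-0.18 to 0.27) and the recipient ones -0.60 (-1.03 to -0.16).

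In NK cells the lower member was Nfkb2, the gene of p100 and p52, the subunit of the noncanonical pathway. It had 48.0, 31.3, 57.7 and 29.1 CPM, with both vehicle libraries above both RvD1 libraries. The log2 ratios were -0.62 (-0.99 to -0.25) and -0.99 (-1.39 to -0.59). With the median ratio of all described genes set to 0, the donor ratio no longer reached 1.5-fold, and no member was lower in NK cells.

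In neutrophils the ligand gave opposite signs in the 2 contrasts of RvD1 with vehicle. Its log2 ratio was 0.15 (0.06 to 0.23) in donor cells and -0.31 (-0.40 to -0.21) in recipient cells, both short of 1.5-fold. Tnfrsf1b gave -0.43 and -0.21, Tnfaip3 -0.54 and -0.22 and Nfkbia -0.27 and -0.17. On the other side of 0 stood the IKK genes: Ikbkb gave 0.43 and 0.42, and Chuk, the member nearest to being called higher, 0.47 and 0.76. Zc3h12a encodes Regnase-1, which degrades cytokine mRNAs. Its levels were 468, 252, 309.8 and 260.2 CPM, so the vehicle donor library stood apart from the other 3, and its log2 ratios were -0.89 and -0.25. Over the 30 described members the median log2 ratio was 0.02 in donor and 0.03 in recipient neutrophils, beside 0.02 and 0.11 for all described genes.

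In both monocyte classes most members had ratios below 0 in donor cells, nearly all of them short of 1.5-fold in both contrasts, and the recipient cells differed between the classes. In classical monocytes 31 of 33 described members were below 0 in donor cells and 22 of 33 in recipient cells, with medians of -0.32 and -0.14 beside -0.04 and -0.05 for all described genes. Rel had 465, 253, 329.8 and 272 CPM there and log2 ratios of -0.88 and -0.28. Bcl3, an IkB protein that can activate transcription with p50 or p52, had 326, 170.2, 259 and 215 CPM and ratios of -0.94 and -0.27. Nfkbia was an exception, at 0.05 and 0.19. In nonclassical monocytes 29 of 31 members were below 0 in donor cells but 12 of 31 in recipient cells, with medians of -0.31 and 0.06 beside -0.09 and -0.01. All 6 IkB family members were below 0 in the donor contrast and none in the recipient contrast. The share of all described genes below 0 was not computed for these contrasts.

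Other measures differed between the same monocyte libraries. A list of dissociation and immediate early genes summed to 5874, 4715, 5850.5 and 5516 CPM in classical monocytes and to 6039.5, 4262, 6013 and 4664 CPM in nonclassical monocytes. Ribosomal protein genes made up 15.6%, 17.9%, 17.2% and 18.6% of UMIs in classical and 11.95%, 16.1%, 14.5% and 14.3% in nonclassical monocytes. S100a8, a neutrophil gene, had 53.5, 372, 636 and 226 CPM in classical monocytes. Their part in the members' ratios was not tested.

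Nfkb1 and Nfkb2 were below 0 in both contrasts of all 6 classes, the only members of the 24 described in every class with that pattern. The same was true of 7.47% of the 3562 genes described in every class. For Nfkb1 the log2 ratios ran from -0.12 in recipient neutrophils to -0.53 in recipient classical monocytes, none of them 1.5-fold. The 12 ratios of a gene come from 4 libraries and are not independent. After subtraction of the trend on intron length each of the 2 genes was below 0 in 11 of 12 ratios. Tnfaip3, Cflar, Tnfrsf1b and Zc3h12a were below 0 in 11 of 12 ratios as reported. For Tnfaip3 the exception was donor B cells, where 29.4 CPM in the vehicle library stood beside 38.9 CPM in the RvD1 library.

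Recipient and donor leukocytes of the same grafts were compared within vehicle grafts and within RvD1 grafts. Each of these contrasts lies within 1 Cell Ranger version. They use the same 4 libraries as the comparison of RvD1 with vehicle. In neutrophils 3 of 31 described members were lower in recipient cells in both contrasts, and none was higher, beside 3.61% and 1.36% of the 6841 described genes. In T cells 7 of 32 were lower and none higher, beside 11.8% and 1.3%. Classical monocytes (0 of 34, with backgrounds of 0.772% lower and 0.379% higher), nonclassical monocytes (0 of 31, 0.573% and 0.143%), B cells (0 of 29, 0.744% and 0.137%) and NK cells (0 of 27, 0.108% and 0.124%) had no member past the threshold in either direction.

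**Figure D4:**
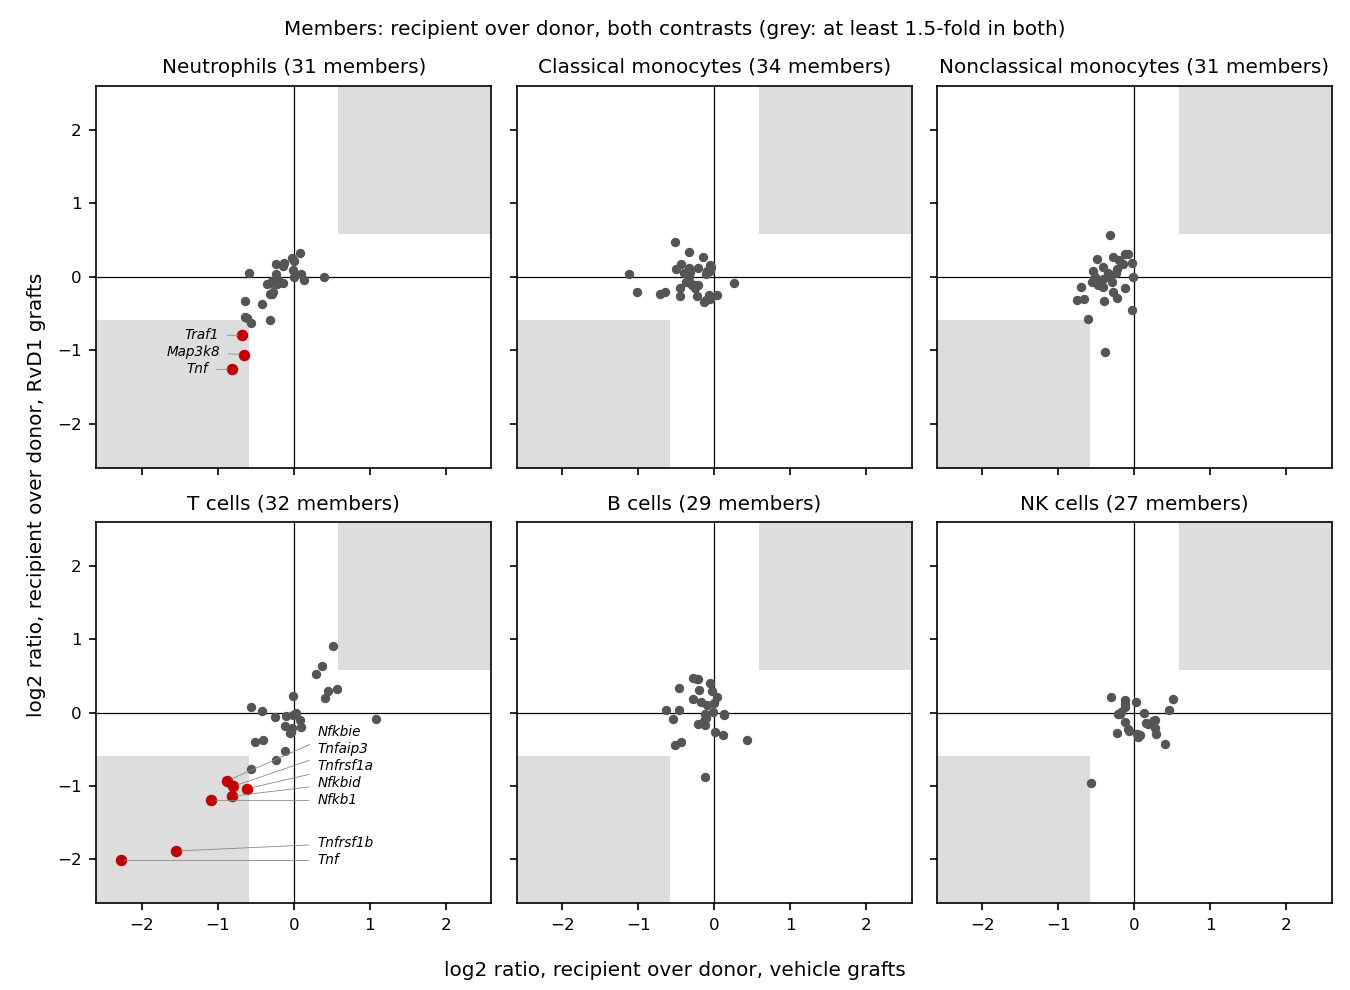
log2 ratio of recipient over donor for each described member, in vehicle grafts (horizontal) and RvD1 grafts (vertical), in 6 classes; grey corners mark at least 1.5-fold in both. The 3 named neutrophil members and the 7 named T cell members lie in the lower left corner, and no member lies in an upper right corner.

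The 3 neutrophil members were Tnf, Traf1 and Map3k8. Tnf gave log2 ratios of -0.81 (-0.90 to -0.72) in vehicle and -1.26 (-1.35 to -1.17) in RvD1 grafts. Traf1 encodes an adaptor of TNFR2 and is itself a known NF-kB target. Its levels were 186, 191, 117 and 109.7 CPM, and its log2 ratios -0.67 (-0.77 to -0.58) and -0.80 (-0.89 to -0.70). Map3k8 encodes the kinase Tpl2, which is held by p105 and drives the ERK arm of the response. It had 69.2, 81.7, 43.8 and 39.2 CPM and log2 ratios of -0.66 (-0.82 to -0.50) and -1.06 (-1.21 to -0.91). For all 3 genes both donor libraries lay above both recipient libraries. Nfkbia, at -0.65 and -0.55, Cflar, at -0.61 and -0.56, and Tnip2, at -0.56 and -0.63, lay just outside the threshold. At the other end Tnfrsf1a gave 0.09 and 0.32, Ikbkb 0.00 and -0.00, and Tnfaip2 -0.00 and 0.10.

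Neutrophils formed 8 clusters that the libraries filled unequally, and 7 of them had at least 20 cells in every library. Cluster 1, led by Ankrd33b and Fnip2, held 827, 196, 1092 and 52 neutrophils, or 58.5%, 10.3%, 32.7% and 1.71% of the class in each library. Cluster 3, led by Retnlg and Mmp8, held 97, 208, 1030 and 738, or 6.86%, 10.95%, 30.85% and 24.3%. Tnf differed more between these 2 clusters than between the libraries. In the vehicle donor library it was 294 CPM in cluster 1 and 47.5 CPM in cluster 3, and in the vehicle recipient library 205 and 48.3 CPM. Within clusters Tnf was lower in recipient than in donor cells in 4 of 7 clusters in vehicle grafts and in 7 of 7 in RvD1 grafts. Traf1 was lower in 6 of 7 and 7 of 7, Map3k8 in 6 of 7 and 7 of 7, and Nfkbia in 7 of 7 in both. With the 7 clusters weighted equally, a choice made after the data were seen, the log2 ratios were -0.23 and -0.83 for Tnf, -0.44 and -0.58 for Traf1 and -0.51 and -0.90 for Map3k8, and no member reached 1.5-fold in both. With the median ratio of all described genes set to 0, Tnf alone of the members was lower.

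**Figure D5:**
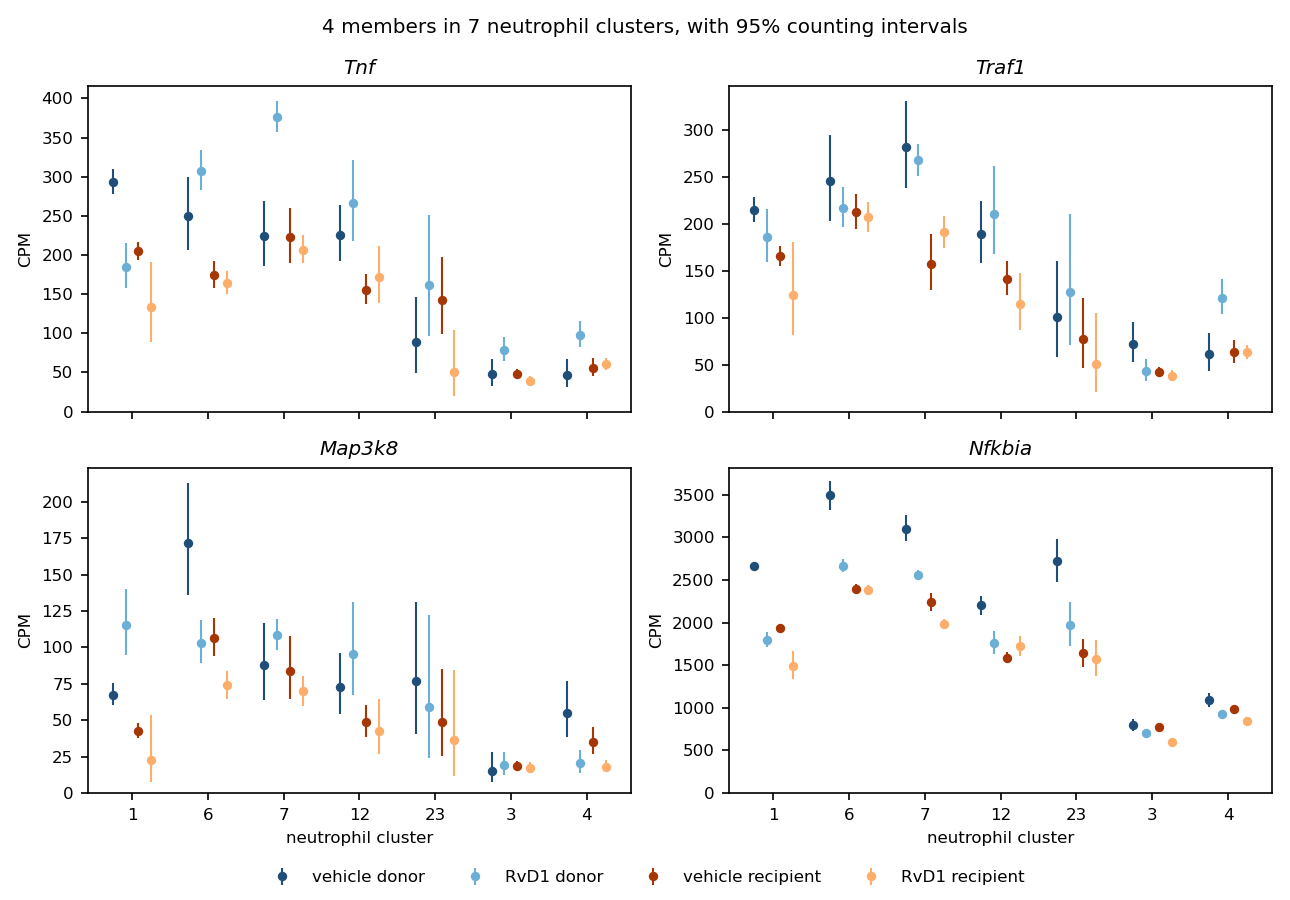
CPM (linear axis) of Tnf, Traf1, Map3k8 and Nfkbia in 7 neutrophil clusters, 1 point per library, with 95% counting intervals. Clusters 3 and 4 have the lowest Tnf levels in most libraries, and Nfkbia is lower in recipient than in donor libraries in 7 of 7 clusters in both contrasts.

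Within clusters RvD1 and vehicle neutrophils also differed. Tnf in donor cells was lower under RvD1 in 1 of 7 clusters, cluster 1, where it had 294 CPM with vehicle and 185 CPM with RvD1, while cluster 7, led by Cstdc4 and Cxcl3, had 225 and 377 CPM. In recipient cells Tnf was lower under RvD1 in 5 of 7 clusters. Nfkbia, Bcl3, Tnfaip3 and Tnfrsf1b were lower under RvD1 in 7 of 7 clusters of donor and in 6 of 7 of recipient cells. Other members went the other way, with Nfkbib lower in 0 and 1, Tank in 1 and 1, Nfkbid in 1 and 1, Ikbkb in 2 and 1 and Nfkbie in 2 and 1 of the 7 clusters. These cluster counts describe 1 library per group, and the same counts over all genes were not computed.

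In T cells the 7 members that were lower in recipient cells spanned the ligand, both receptors, a subunit and 3 inhibitors. Tnf gave log2 ratios of -2.28 (-2.93 to -1.68) in vehicle and -2.01 (-2.46 to -1.58) in RvD1 grafts. Tnfrsf1b gave -1.54 (-1.71 to -1.38) and -1.89 (-2.03 to -1.74), and Tnfrsf1a, at 33.5, 35.2, 21.9 and 17.2 CPM, gave -0.61 and -1.04. The recipient libraries lay below the donor libraries for each of the 3. Nfkb1 had 460.0, 399, 217 and 174 CPM and ratios of -1.08 (-1.17 to -0.9996) and -1.20 (-1.27 to -1.12). Tnfaip3 had 419.9, 326, 242 and 162 CPM and ratios of -0.80 and -1.01. The 2 remaining genes encode IkB proteins, IkBNS and IkBε. Nfkbid gave -0.82 and -1.14, and Nfkbie gave -0.87 and -0.93. Map3k8 was nearest to being higher, at 0.52 and 0.90, opposite to its direction in neutrophils.

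The T cell class also held different cells on the 2 sides. Cluster 15, led by Il23r, Cd163l1 and Trdc, held 163 and 220 donor T cells but 10 and 53 recipient T cells, and cluster 17, led by Btbd11, held 153, 148, 8 and 16. Clusters 8 and 9, whose leading genes include Lef1, together took in more of the recipient than of the donor T cells: cluster 8 held 22.4%, 18.7%, 48.7% and 39.3% of the class and cluster 9 held 16.1%, 9.34%, 38.6% and 44.2%. In cluster 15 Tnf had 64.8 and 47.7 CPM in donor cells and 59.3 CPM in RvD1 recipient cells, against 2.24 to 3.78 CPM in cluster 8. Nfkb1 in the same way had 1101, 953 and 877 CPM in cluster 15 and 132 to 231 CPM in cluster 8. Clusters 15 and 17 were too small in a recipient library to be weighted. With them left out and clusters 8, 9 and 11 weighted equally, 2 changes at once, the log2 ratios were -0.34 and -0.11 for Tnf and -0.21 and -0.07 for Nfkb1, Nfkbie turned to 0.22 and 0.01, and none of the 7 reached 1.5-fold in both. Tnfrsf1b stayed lowest, at -0.48 and -0.66. Ribosomal protein genes made up 22.7%, 27.8%, 34.1% and 35.9% of T cell UMIs, and their part was not tested.

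In nonclassical monocytes all 31 described members were below 0 in vehicle grafts, with a median of -0.34 beside -0.04 for all described genes, and 16 of 31 were below 0 in RvD1 grafts, with a median of 0.00 beside 0.02. The vehicle recipient library held only 103 of these cells. Tnf gave -0.38 (-0.78 to -0.01) and -1.03 (-1.34 to -0.73) in this class. In classical monocytes 32 and 19 of 34 members were below 0. Here too, the share of all described genes below 0 was not computed. The vehicle graft contrast and the donor contrast of RvD1 with vehicle are both set against the vehicle donor library. Their sign counts in the monocyte classes are therefore not independent. Nfkb1 was below 0 in both contrasts of all 6 classes, as were 0.65% of the 4141 genes described in every class. In NK cells Bcl3, at 40.7, 32.9, 27.4 and 16.9 CPM, lay just outside the threshold with -0.57 and -0.96.

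Genes outside the 34 members gave the setting. Of 26 described effector genes of the pathway in neutrophils, 4 were lower in recipient cells in both contrasts and none was higher, beside 3.61% and 1.36% of all described genes. They were the chemokine genes Ccl3 (720.2, 710.8, 265 and 221 CPM), Ccl4, Cxcl3 and Cxcl1, with log2 ratios of -1.44 and -1.68, -1.18 and -1.11, -0.999 and -1.02, and -1.11 and -1.45. None of 24 upstream adaptors passed in that comparison. In nonclassical monocytes 5 of 17 effectors were lower in recipient cells, beside 0.573% of all described genes: Ptgs2, Cxcl2, Ccl3, Ccl4 and Ier3, the last of which was singled out after its values were seen. Elsewhere Myc was the 1 of 13 effectors that was lower in B cells, and Ccl3 the 1 of 24 that was higher in classical monocytes. Of 25 upstream genes in classical monocytes 1 was lower, beside 0.772% of all described genes. In T cells 7 of 18 effectors were lower in recipient cells, beside 11.8% of all described genes, among them the survival gene Bcl2a1d at -3.29 and -3.22. The upstream list had 2 of 22 lower there, Irak2 and Irak3, a share near that background. Of 17 described dissociation and immediate early genes, 5 were lower in recipient T cells: Atf3, Fosb, Egr1, Fos and Dusp1, of which Fos and Dusp1 were singled out after their values were seen.

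Under RvD1 the upstream genes of neutrophils went both ways. Tlr4, the endotoxin receptor, gave -0.69 and -0.77 and Ltbr, the lymphotoxin β receptor, -0.81 and -0.66. Rnf31, the catalytic subunit of the linear ubiquitin ligase, gave 0.82 and 0.88 and Map3k7, the kinase TAK1 above IKK, 0.70 and 0.60; the last gene was singled out after its values were seen. These were the 4 of 23 described upstream genes past the threshold, and of 26 effectors only Csf3 passed, at -0.88 and -0.60. Over all described neutrophil genes 9.39% were lower and 4.81% higher, so 2 of 23 upstream genes lower and 1 of 26 effectors lower are shares near or below the background. In nonclassical monocytes 1 of 14 effectors was lower, Irf1 at -0.91 and -0.72, and 1 was higher, Cxcl2 at 0.74 and 2.19, beside 1.39% and 0.927% of all described genes. Of 16 described dissociation and immediate early genes in that class, 3 were lower and none higher. In T cells 3 of 16 were lower and none higher, beside 1.94% and 1.09%. In neutrophils 1 of 15 was lower and 2 were higher. In B cells 2 of 13 effectors and 1 of 15 dissociation and immediate early genes were higher and none lower, beside 0.685% and 1.22%. Classical monocytes had 1 of 22 upstream genes and 1 of 21 effectors higher, beside 0.985%. In NK cells 1 of 12 effectors was higher, beside 0.944%, and in T cells 1 of 22 upstream genes, beside 1.09%.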

How the data were processed

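The members and the lists of other genes were chosen with earlier results of these data known. The authors deposited raw UMI counts for every gene in each cell, made with Cell Ranger 6.1.1 (vehicle) or 7.0.1 (RvD1), per the file headers; mm10 and Seurat 4.0.0 are named per the submitters' processing notes. From these counts, a cell was kept if it had 200 or more genes and no more than 10% of its UMIs from mitochondrial genes, and doublets were removed with Scrublet in scanpy 1.11.5 at an assumed 0.8% per 1000 cells. The libraries were clustered together (Leiden resolution 1, 30 principal components, 15 neighbours, 4278 variable genes, none of them members). A cluster was named where at least 3 markers of 1 type were detected in 10% of its cells and the next type scored under 70% of the best. Classes with at least 100 cells in every library were compared, and levels are given from 20 cells. UMIs were summed per class and library, with exact Poisson intervals, and ratios have exact binomial intervals, no pseudocount, and a floor of 3 counts. Beside the members, a rule named up to 4 genes of each other list per class and comparison, those with the largest mean absolute log2 ratio. No test was run, since each group is 1 library. The scripts were tested on simulated data. Alternatives changed the clustering, scaling, UMI minimum, class sum, neutrophil RNA, intron trend and thinning, and 2 of them, clusters weighted equally and cluster 14 as nonclassical monocytes, were chosen after seeing the data.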

Additional observations from a re-analysis of the deposited data

Results flagged for a closer look

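For 9 results the log2 ratio was above 0 in 1 contrast and below 0 in the other, with both counting intervals away from 0 and a gap of at least 1.5-fold. Each contrast compares 1 library with 1 library, and none of the differences was tested. For RvD1 over vehicle, the gap is the recipient minus the donor ratio. Birc3 in B cells had a gap of 0.68 (-0.51 in donor and 0.17 in recipient cells). In classical monocytes the gap was 0.80 for Traf1 (-0.37 and 0.43) and 0.61 for Tnip3 (-0.19 and 0.42). Tnfrsf1b in nonclassical monocytes had a gap of 0.62 (-0.38 and 0.24). For recipient over donor, the gap is the RvD1 minus the vehicle ratio. B cells gave 0.80 for Bcl3 (-0.46 in vehicle and 0.34 in RvD1 grafts) and 0.68 for Birc3 (-0.22 and 0.46). Classical monocytes gave 0.99 for Cd40 (-0.51 and 0.47) and 0.67 for Bcl3 (-0.33 and 0.34). Nonclassical monocytes gave 0.74 for Bcl3 (-0.49 and 0.25). Both comparisons use the same 4 libraries, so the gaps of Birc3 in B cells in the 2 comparisons are 1 observation.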

How the results depend on the processing

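No paired analysis was possible because each group is 1 library, and no library could be left out. For RvD1 over vehicle, as reported 1 member was lower in nonclassical monocytes (Tnfaip2) and 1 in NK cells (Nfkb2), and none was higher in any class. The count of lower members became 2 in B cells (Nfkb2, Ripk1) and 2 in T cells (Nfkbid, Tnip1) with clusters weighted equally, 1 in classical monocytes (Tnfaip3) with each library clustered alone, 0 in NK cells with the median ratio set to 0, and 1 in neutrophils (Tnip3) with a minimum of 30 UMIs. In nonclassical monocytes it became 0 with each library clustered alone or with the mean of the CPM of each cell, and 2 with cluster 14 added (Tnfaip3 and Zc3h12a, without Tnfaip2). Tnfaip2 in donor nonclassical monocytes reversed to 0.57 with each library clustered alone. The count of higher members became 1 in B cells (Tnfaip2) at Leiden resolution 2 and 1 in neutrophils (Traf2) with a minimum of 30 UMIs. For recipient over donor, the count of lower members in neutrophils, 3 as reported, became 1 (Tnf) with the median ratio set to 0, 0 with clusters weighted equally, and 4 (Tnip2 added) with each library clustered alone or at Leiden resolution 2. The 7 in T cells became 5 with the median ratio set to 0 (without Tnfaip3 and Tnfrsf1a), 6 at Leiden resolution 2 or with the intron trend subtracted (without Tnfrsf1a), and 0 with clusters weighted equally, where Nfkbie reversed to 0.22 in vehicle and 0.0084 in RvD1 grafts. In T cells that last setting used 3 of 5 clusters (8, 9 and 11), so it changed the cells and the weights together. The count of lower members became 1 in B cells (Tnfaip2) at Leiden resolution 2 and 1 in NK cells (Bcl3) with neutrophil RNA or the intron trend subtracted or with the mean of the CPM of each cell. In nonclassical monocytes it became 1 at Leiden resolution 2 or with neutrophil RNA subtracted (Tnfaip2) and 1 with cluster 14 added (Tnf). The count of higher T cell members, 0 as reported, became 2 (Bcl3, Map3k8) with the median ratio set to 0 and 1 (Map3k8) with the intron trend subtracted. The cause of the other changes was not tested, apart from the fewer UMIs asked for by the lower minimum. Over all described genes the median was -0.22 and -0.19 in T cells for recipient over donor and -0.26 and -0.10 in B cells for RvD1 over vehicle. Counts from 103 nonclassical monocytes in the vehicle recipient library limit that class.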
